A study of Mus musculus with 5 samples.

Results

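The transcripts described here are those of 32 genes that act in mitosis, measured in long-term haematopoietic stem cells (LT-HSCs) of mice with and without LRF, the transcriptional repressor encoded by Zbtb7a. The genes were taken from a fixed list, and each was read from the brightest probe set annotated to that gene alone. Such a probe set was found for 31 of the 32, all 31 were above the level taken as background (a log2 intensity of 5.77), and they belong to 12813 genes tested in all. Ccnb1, the cyclin B1 gene, was not matched to a probe set of its own and was not analysed here.

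All 5 arrays came from C57BL/6 animals aged 4 weeks that carried the Mx1-Cre transgene, in which an interferon-responsive promoter drives Cre recombinase. Cre was induced in both groups with 2 injections of pIpC (250 µg each), a double-stranded RNA analogue that triggers interferon, and cells were collected on day 9 after the first. The 2 control arrays came from Zbtb7a Flox/+ Mx1-Cre+ mice, which can lose 1 allele and are named heterozygous in the labels. The 3 knockout arrays came from Zbtb7a Flox/Flox Mx1-Cre+ mice. Mx1-Cre is known to act in many tissues besides blood, and deletion was not measured here. The label of knockout replicate 3 names 2 animals, so that RNA may be a pool. LT-HSCs were sorted as Lin- Sca-1+ Kit+ (LSK) cells that lacked IL7Ra, Flt3 and CD48 and carried CD150. With 2 arrays against 3, precision is limited throughout.

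Mitosis is run by the kinase CDK1 with its A and B cyclins, which start chromosome condensation and spindle building. Kinetochores then bind the spindle, the checkpoint holds back the anaphase-promoting complex (APC/C) until every chromosome is attached, and the midzone directs the final cleavage. Transcripts of these genes are made mainly in G2 phase and mitosis and are scarce in resting cells. Most adult LT-HSCs are at rest, and interferon is known to drive them into division for a time. In bulk RNA, fewer dividing cells and less RNA per dividing cell cannot be told apart.

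Many of these genes share short promoter words, and the sequences are shown to let a reader see them. The words searched on both strands were TTTGAA, the core of the cell cycle genes homology region through which the DREAM and MuvB complexes act, and CCAAT, the box bound by NF-Y. The words can share an end base and were counted separately. RefSeq promoter windows (GRCm38.p6, 250 bases before to 50 bases after the start) were matched for 27 of the 32 genes. Those of Ccna2, Cdc25c, Tpx2, Aurkb and Kif20a were not in the table used here. In 6 genes both words lay within the last 100 bases before the start, and 5 of these stretches are printed 5′ to 3′ along the gene, with both words in capitals (Prc1, which has 2 windows in the table, is not printed). They are Cdk1 (chr10:69352913-69353012, minus strand), Cdc20 (chr4:118437344-118437443, minus strand), Kif11 (chr19:37376282-37376381, plus strand), Top2a (chr11:99024190-99024289, minus strand) and Ube2c (chr2:164769829-164769928, plus strand).
Cdk1: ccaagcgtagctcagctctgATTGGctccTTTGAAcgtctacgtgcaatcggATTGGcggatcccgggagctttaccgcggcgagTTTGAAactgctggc
Cdc20: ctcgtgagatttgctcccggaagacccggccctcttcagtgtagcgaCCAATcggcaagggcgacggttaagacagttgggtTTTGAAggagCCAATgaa
Kif11: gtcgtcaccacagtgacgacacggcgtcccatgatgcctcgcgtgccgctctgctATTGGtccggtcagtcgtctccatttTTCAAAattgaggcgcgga
Top2a: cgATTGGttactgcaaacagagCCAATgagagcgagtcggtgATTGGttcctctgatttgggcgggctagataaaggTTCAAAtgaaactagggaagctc
Ube2c: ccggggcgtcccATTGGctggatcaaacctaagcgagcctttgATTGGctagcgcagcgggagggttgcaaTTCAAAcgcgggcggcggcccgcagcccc

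In these stretches the TTTGAA word nearest the start (TTCAAA on the other strand) began 15 bases before it in Cdk1, 18 in Cdc20, 19 in Kif11, 23 in Top2a and 29 in Ube2c. Over the whole 300-base window, 19 of 27 mitosis genes held TTTGAA (70.4%), against 20.2% of the 27025 genes in the table. CCAAT was present in 21 of 27 (77.8%, against 41.1%), and both words in 17 (63.0%, against 7.97%). TTTGAA began within 40 bases of the start in 17 genes (63.0%, against 4.88% of all genes), a distance chosen after the positions were seen. A second list of mitotic genes gave 63.6% for TTTGAA and 50.9% for both words over 55 genes. DNA replication genes gave 13.8% and 10.3% over 29 genes, with CCAAT in 62.1%. The windows of Birc5, Mad2l1, Nuf2 and Nusap1 held neither word, which says only that these letters are not in them. A match is a description of the sequence and not of binding.

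The arrays were not alike apart from genotype. Knockout replicate 2 correlated with the others at 0.945 to 0.970 over all probe sets, against 0.977 to 0.990 among the rest. For Actb, its 3' control probe set exceeded the 5' one by 3.85, against 4.90 to 5.21 on the remaining arrays. Immediate early genes averaged 11.51 in it and 7.46 to 7.82 elsewhere, granulocyte-monocyte progenitor genes 12.02 against 9.83 to 10.55, and stem cell genes 7.92 against 9.87 to 10.68. The gate's own markers Slamf1 (CD150) and Kit were measured in every array, at 6.60 to 9.16 and 9.60 to 11.82, with the lowest value of each in knockout replicate 2. The excluded markers Cd48, Flt3 and Il7r also lay above background in every array, at 7.87 to 9.97, 8.25 to 9.50 and 6.21 to 10.50. Il7r read 6.21 and 7.30 in controls and 9.35, 10.50 and 7.44 in knockouts, without overlap (difference 2.34, SE 0.98). Its high values were thus not confined to knockout replicate 2, and it did not pass the adjusted test given below. Over all genes, 2.68% were higher in knockouts without overlap. The groups overlapped for Cd48 and Flt3. Ly6a, which encodes Sca-1, was not matched. Zbtb7a, the targeted gene, read 8.22 and 8.36 in controls and 8.72, 8.33 and 9.06 in knockouts (difference 0.41, SE 0.26), so its probe set was not lower in the arrays labelled knockout. The floxed stretch is not given in the sources used here, nor whether this probe set lies in it, so its value does not check the deletion and the groups are named by the labels alone.

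Mitosis transcripts differed between single arrays within each genotype. Control replicate 1 gave the highest value of the 5 arrays for 19 of 31 genes (61.3%, against 13.4% of all 12813 genes tested), and knockout replicate 1 gave the lowest for 25 (80.6%, against 15.2%). Without knockout replicate 2, a setting added after the data were seen, these counts were 23 (74.2%, against 29.0%) and 26 (83.9%, against 21.3%). The median deviation from a gene's own mean, on the log2 scale, was 0.30 and -0.14 in control replicates 1 and 2 and -0.39, 0.07 and 0.09 in knockout replicates 1, 2 and 3. No mitosis gene was lowest in control replicate 1, none was lowest in knockout replicate 3, and none was highest in control replicate 2 or knockout replicate 1.

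**Figure D1:**
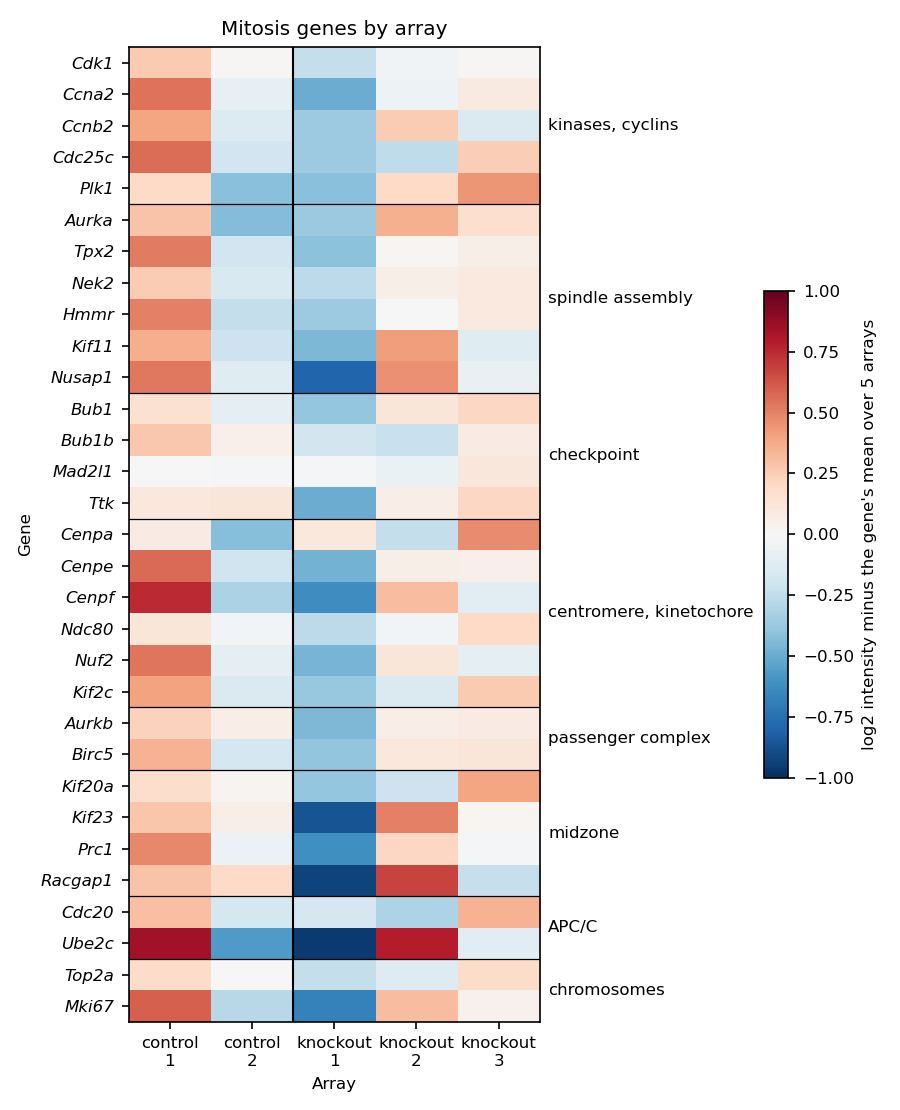
Colour gives the log2 intensity of each of 31 mitosis genes (rows, by role) on each array (columns), minus that gene's mean over 5 arrays. Control replicate 1 is mostly above the mean and knockout replicate 1 mostly below it, with median deviations of 0.30 and -0.39.

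Between the groups, 27 of 31 mitosis genes had a lower mean in knockouts (87.1%, against 56.2% of all genes tested). The median log2 difference, knockout minus control, was -0.22, against -0.03 over all genes. The differences ranged from -0.39 (Ccna2 and Racgap1) to 0.28 (Cenpa). None passed limma's test across all probe sets with Benjamini-Hochberg adjustment (0 of 31, against 0% of 27022 probe sets, adjusted p = 1 for each gene). At an unadjusted p under 0.05 there were also 0 of 31, against 0.96% of all genes, and 306 probe sets in all. The groups were separate for 1 gene, Cdk1, which was lower in knockouts (over all genes, 4.5% were lower and 2.68% higher without overlap).

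The median mitosis gene differed by 0.53 between the 2 controls, and control replicate 1 was the higher for 30 of 31 (96.8%, against 39.7% of all genes). For 25 of the 31 genes the controls differed from each other by more than the groups did. This count sets 2 single arrays against means of 2 and 3 arrays, which vary less. No share over all genes is given for it, so it is not a result about the mitosis genes. The median depended on single arrays. Without control replicate 1 it was 0.06, with 12 genes lower and 19 higher, and without knockout replicate 1 it was -0.01. Leaving out control replicate 2 gave -0.40, knockout replicate 2 gave -0.26 and knockout replicate 3 gave -0.33. The 95% intervals of all 31 differences included 0, and 15 lay within a 2-fold change in either direction. A fall of 2-fold lay outside the interval for 18 genes and inside it for the others, so the test leaves changes of that size undecided for those.

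**Figure D2:**
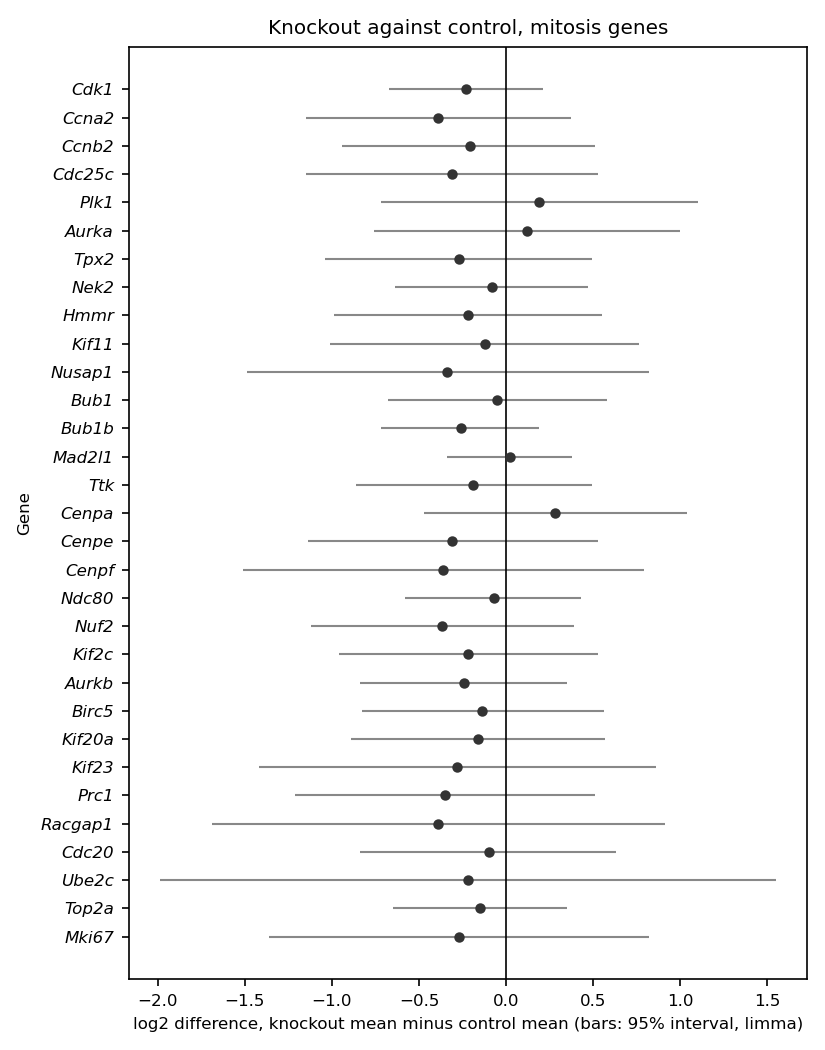
Points give the log2 difference of each mitosis gene, knockout mean (n = 3) minus control mean (n = 2), and bars the 95% interval of the limma fit. Every interval includes 0, and the interval of Ube2c is the widest (-1.99 to 1.55).

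**Figure D3:**
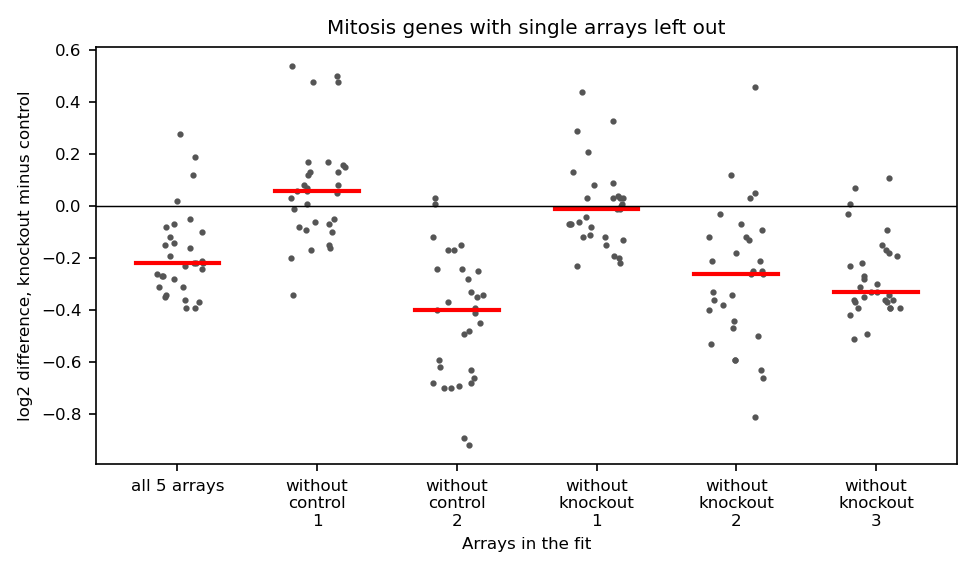
Each dot is the log2 difference of 1 of the 31 mitosis genes, and red lines are medians, with all 5 arrays and with each array left out. The median is -0.22 with all arrays, 0.06 without control replicate 1 and -0.01 without knockout replicate 1.

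Among the kinases and cyclins that start mitosis, 4 of 5 measured genes had a lower knockout mean and none passed the test. Levels from here on are log2 intensities and differences are log2, knockout minus control. Cdk1, the kinase itself, read 11.32 and 11.07 in control replicates 1 and 2 and 10.82, 11.03 and 11.07 in knockout replicates 1, 2 and 3. Every knockout value lay below both controls, but control replicate 2 exceeded knockout replicate 3 by only 0.0022. The difference was -0.23 (SE 0.17), or 0.854-fold with a 95% interval of 0.629 to 1.16. Ccna2, which encodes cyclin A2, read 11.57 and 10.94 in controls and 10.53, 10.97 and 11.11 in knockouts. Knockout replicates 2 and 3 lay between the controls, and the difference was -0.39 (SE 0.29). Its second probe set read 10.93 and 10.07 against 10.35, 10.74 and 10.79, a difference of 0.13 (SE 0.32), so the sign depended on the probe set. Ccnb2, the cyclin B2 gene, read 12.14 and 11.61 against 11.38, 12.00 and 11.60, with knockout replicate 2 near the upper control.

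Cdc25c, the phosphatase that activates CDK1, read 9.07 and 8.32 in controls and 8.15, 8.26 and 8.76 in knockouts, a difference of -0.31 (SE 0.32). Its values overlapped between the groups. Plk1, the kinase that promotes mitotic entry and centrosome maturation, had the opposite sign. It read 9.44 and 8.82 in controls and 8.82, 9.44 and 9.68 in knockouts, a difference of 0.19 (SE 0.35). Its lowest values, in control replicate 2 and knockout replicate 1, were alike to 2 decimals, and the groups overlapped.

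Genes of spindle assembly had a lower knockout mean in 5 of 6, and control replicate 1 was above control replicate 2 in all 6. Nusap1, a microtubule-bundling protein near chromosomes, read 11.72 and 11.07 in controls and 10.40, 11.65 and 11.12 in knockouts. Knockout replicate 1 lay 0.99 below the control mean and knockout replicate 2 lay 0.26 above it. Kif11, the kinesin that pushes the spindle poles apart, read 10.10 and 9.53 against 9.29, 10.16 and 9.62. It was highest in knockout replicate 2, and its difference was -0.12 (SE 0.34).

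Aurka, the centrosomal Aurora kinase, read 9.94 and 9.22 in controls and 9.28, 10.01 and 9.82 in knockouts. Its difference was 0.12 (SE 0.34), and its second probe set gave -0.24, so its sign depended on the probe set. Tpx2, which activates Aurora A on the spindle, read 10.92 and 10.21 against 9.99, 10.42 and 10.46 (difference -0.27, SE 0.29). Hmmr, a spindle protein first known as a hyaluronan receptor, and Nek2, a kinase that splits centrosomes, differed by -0.22 (SE 0.29) and -0.08 (SE 0.21). In both, control replicate 1 was highest and knockout replicate 1 lowest.

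Checkpoint genes had the smallest median range over the arrays of the role groups, 0.54. Mad2l1, whose protein MAD2 restrains the APC/C activator, read 11.57 and 11.55 in controls and 11.55, 11.50 and 11.68 in knockouts. Its range of 0.17 was the smallest of the 31 genes, and its difference of 0.02 had a 95% interval of -0.34 to 0.38. Bub1b, which encodes the checkpoint protein BUBR1, had the smallest unadjusted p of the 31 and an adjusted p = 1 by limma. It read 11.59 and 11.37 in controls and 11.14, 11.10 and 11.40 in knockouts, a difference of -0.26 (SE 0.17), with knockout replicate 3 just above control replicate 2. Its other probe set above background gave -0.08 (SE 0.17), and there knockout replicate 2 was highest. Ttk, the checkpoint kinase MPS1, read 8.39 and 8.41 against 7.79, 8.35 and 8.49. Here a single array, knockout replicate 1, stood 0.61 below the control mean. The second probe set of Ttk read 7.19 and 7.24 in controls and 7.19, 6.18 and 7.34 in knockouts. There the low array was knockout replicate 2, so the low array depended on the probe set.

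Bub1, a kinetochore kinase of the checkpoint, read 10.25 and 10.01 in controls and 9.71, 10.22 and 10.31 in knockouts where its signal was brightest, a difference of -0.05 (SE 0.24). Its dimmer probe set read 7.34 and 7.67 in controls and 5.88, 6.34 and 7.04 in knockouts. There the groups did not overlap and the difference was -1.08 (SE 0.38). Its unadjusted limma p was under 0.05, as for 1.13% of all probe sets, and it did not pass after Benjamini-Hochberg adjustment (limma, adjusted p = 1). The 2 probe sets of Bub1 thus disagreed in size, and this one was singled out after its values were seen.

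Centromere and kinetochore genes included both the most positive difference and several of the most negative. Cenpa, the histone H3 variant that marks centromeres, read 11.03 and 10.52 in controls and 11.05, 10.71 and 11.42 in knockouts. It was the 1 gene of the 31 that knockout replicate 1 held above the control mean, and its difference was 0.28 (SE 0.29). Its other probe set above background gave 0.45 (SE 0.31), and was also highest in knockout replicate 3. Cenpf, a large kinetochore protein that builds up in G2, read 11.71 and 10.65 in controls and 10.34, 11.27 and 10.85 in knockouts. The controls differed by 1.06 and the groups by -0.36 (SE 0.44).

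Nuf2 and Ndc80 encode partners in the complex that grips microtubules. Nuf2 read 10.35 and 9.72 in controls and 9.35, 9.94 and 9.72 in knockouts, a difference of -0.37 (SE 0.29). Ndc80 read 9.28 and 9.13 against 8.90, 9.13 and 9.36, a difference of -0.07 (SE 0.19). Cenpe, the kinesin that brings chromosomes to the spindle equator, differed by -0.31 (SE 0.32), and Kif2c, a kinesin that takes microtubules apart, by -0.22 (SE 0.28). For both genes the lowest array was knockout replicate 1 and the highest was control replicate 1.

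The chromosomal passenger genes Aurkb and Birc5 were both highest in control replicate 1 and lowest in knockout replicate 1. Aurkb, the kinase that corrects faulty attachments, read 10.28 and 10.12 in controls and 9.60, 10.12 and 10.13 in knockouts. Birc5, which encodes survivin, read 9.98 and 9.46 against 9.24, 9.74 and 9.76. Knockout replicates 2 and 3 were close to each other in both genes, while knockout replicate 1 lay 0.60 and 0.47 below the control mean. The differences were -0.24 (SE 0.23) and -0.14 (SE 0.27).

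Midzone genes had the largest median range of the role groups, 1.23, and all 4 had a lower knockout mean. Racgap1, the GTPase-activating subunit of centralspindlin, read 9.40 and 9.30 in controls and 8.19, 9.79 and 8.88 in knockouts. The knockout values spanned 1.60 while the controls differed by 0.10, and the difference was -0.39 (SE 0.50). Kif23, the kinesin subunit of the same complex, read 10.63 and 10.41 against 9.49, 10.85 and 10.37. In both genes knockout replicate 1 was lowest and knockout replicate 2 highest. Kif11, which is not part of this complex, had the same extremes, so the order is not particular to these partners.

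Prc1, the protein that crosslinks midzone microtubules, read 11.43 and 10.89 in controls and 10.33, 11.15 and 10.93 in knockouts (difference -0.35, SE 0.33). Kif20a, a kinesin needed for cleavage, read 9.47 and 9.32 against 8.91, 9.09 and 9.69 (difference -0.16, SE 0.28). Kif20a was highest in knockout replicate 3, as were 7 other genes: Plk1, Bub1, Mad2l1, Ttk, Cenpa, Ndc80 and Cdc20.

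Of the APC/C genes, Ube2c varied most of the 31 and Cdc20 much less. Ube2c, the ubiquitin-conjugating enzyme of the complex, read 10.83 and 9.43 in controls and 9.04, 10.78 and 9.89 in knockouts. The controls differed by 1.40, and the groups by -0.22 (SE 0.68, 95% interval -1.99 to 1.55). Cdc20, the activator that the checkpoint holds back, read 13.28 and 12.80 against 12.81, 12.67 and 13.32. Its 3 probe sets gave -0.10, 0.02 and -0.10, so they differed in sign around 0.

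Top2a, the topoisomerase that untangles sister chromatids, read 13.17 and 12.98 in controls and 12.75, 12.86 and 13.17 in knockouts, a difference of -0.15 (SE 0.19). Mki67, which encodes the proliferation marker Ki-67, read 14.21 and 13.34 against 12.94, 13.92 and 13.66. Mki67 had the order seen over the list, with control replicate 1 at the top and knockout replicate 1 at the bottom, and a difference of -0.27 (SE 0.42, 95% interval -1.36 to 0.82).

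The 31 genes had 69 single-gene probe sets, and 29 of the 38 others were above background. Of these 29, 24 had a lower knockout mean and 5 a higher one, with a median of -0.15 and a range of -1.08 to 0.45. The sign differed from that of the brightest probe set for 1 probe set each of Aurka, Ccna2, Cdc20, Kif2c (0.04, SE 0.14) and Tpx2 (0.13, SE 0.26). Control replicate 1 was highest for 19 of the 29 and knockout replicate 1 lowest for 18. These probe sets read the same RNA as the brightest ones and are not independent of them.

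Other genes of mitosis, from a second list of 63, showed the same order of arrays. Of 61 measured above background, 36 were highest in control replicate 1 (59.0%) and 43 lowest in knockout replicate 1 (70.5%). The median difference was -0.20, with 55 lower and 6 higher, and 0 passed limma's test at either threshold. The groups did not overlap for 8 of 61, all lower in knockouts, where 4.5% of all genes were lower without overlap. Pbk, a mitotic kinase, had the smallest p and read 11.82 and 11.88 in controls and 10.86, 11.56 and 11.43 in knockouts (difference -0.56, SE 0.26). Ncapg and Ncapd2, subunits of condensin, differed by -0.55 (SE 0.27) and -0.39 (SE 0.20), and Cenpm, a centromere protein, by -0.29 (SE 0.16).

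Transcription factors of the mitotic programme, the DREAM, MuvB, E2F and NF-Y genes, had 17 of 17 measured, 12 of them lower in knockouts, with a median of -0.19. Rbl1, which encodes the pocket protein p107, read 11.63 and 11.84 in controls and 10.52, 11.12 and 10.90 in knockouts. All 3 knockout values lay below both controls, and the difference was -0.89 (SE 0.23). It was the 1 gene of the 17 with an unadjusted limma p under 0.05, against 0.96% of all genes. Its adjusted p = 1 (limma, Benjamini-Hochberg). E2f7, a repressor of the E2F family, differed by -0.58 (SE 0.32) and E2f1 by -0.19 (SE 0.14), both without overlap. With Rbl1 that made 3 of 17 lower without overlap, against 4.5% of all genes. Lin54, the MuvB subunit that contacts the TTTGAA element, differed by -0.26 (SE 0.19) with overlap.

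Core subunits of the APC/C, listed together with its coactivator gene Fzr1, had another order of arrays as a list. Fzr1 was the 1 gene of this list that was lowest in knockout replicate 1. Control replicate 1 was highest for 0 of 13, against 13.4% of all genes. Knockout replicate 2 was lowest for 9 (69.2%, against 40.5% of all genes), and the median difference was -0.08. Anapc11, the RING subunit, differed by 0.40 (SE 0.21) and Anapc5 by -0.27 (SE 0.23), each without overlap, and neither passed. Genes that delay mitotic entry gave a median of 0.12 over 9. Gadd45a, Gadd45g and the CDK inhibitor gene Cdkn1a, all induced by stress, were highest in knockout replicate 2. The values of Gadd45g and Cdkn1a did not overlap between the groups, with differences of 1.11 (SE 0.66) and 0.65 (SE 0.36), and neither passed. Over all genes, 2.68% were higher and 4.5% lower without overlap. Gadd45g read 7.42 and 6.87 in controls and 7.70, 9.48 and 7.59 in knockouts. Cdkn1a read 7.62 and 7.54 against 7.79, 8.86 and 8.04. Gadd45a read 7.84 and 6.20 in controls and 7.13, 9.90 and 8.28 in knockouts.

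DNA replication genes, which act in S phase, had a like median difference of -0.21 over 34 genes but another order of arrays. Knockout replicate 2 was lowest for 28 of 34 (82.4%), against 3 of 31 mitosis genes (9.68%) and 40.5% of all genes. Knockout replicate 1 was lowest for 4 of the 34 (11.8%), against 25 of 31. The median deviations were 0.16 and 0.09 in controls and -0.07, -0.42 and 0.25 in knockouts. Lig1, the replicative DNA ligase, had the smallest p and read 11.30 and 11.34 against 10.75, 10.69 and 11.11 (difference -0.47, SE 0.19). The array that was most often lowest thus differed between the lists, and the difference between the lists was not tested.

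**Figure D4:**
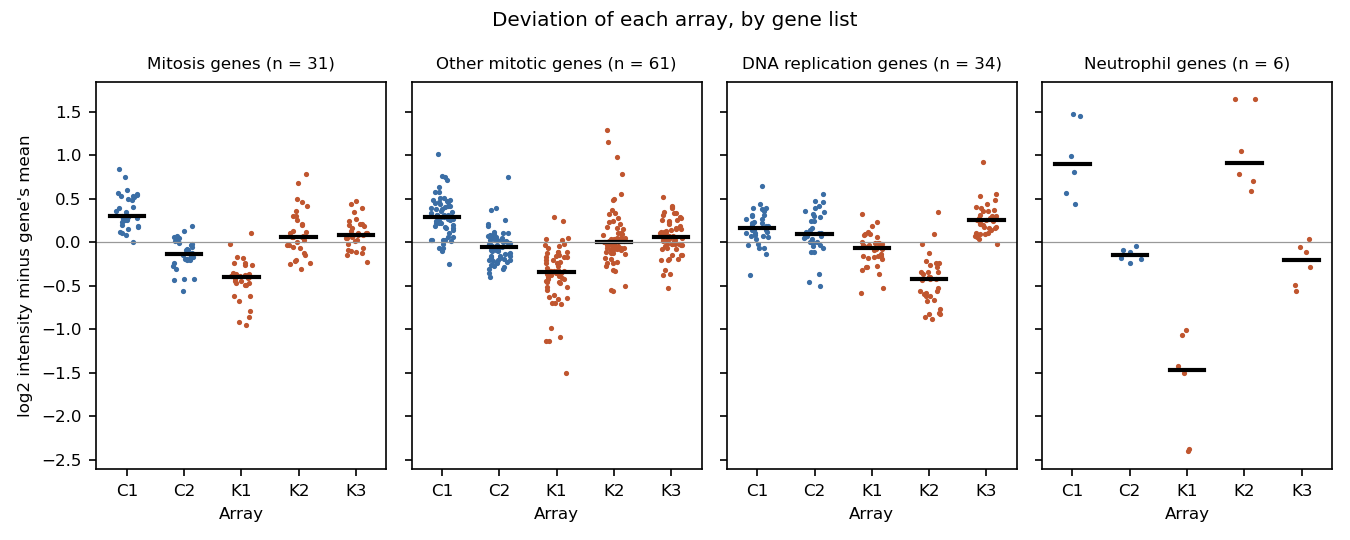
Dots give the deviation of each gene from its own mean over 5 arrays, on the log2 scale, in control (C1, C2, blue) and knockout (K1 to K3, orange) arrays, and black lines are medians. Mitosis genes are lowest in K1 (median -0.39), replication genes in K2 (median -0.42), and neutrophil genes are lowest in K1 and high in C1 and K2.

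Cyclin and CDK genes of G1, listed with the phosphatase gene Cdc25a, gave a median of -0.11 over 9 genes, 7 of them lower in knockouts. Ccnd1, the cyclin D1 gene, read 8.28 and 8.54 in controls and 7.66, 7.74 and 7.21 in knockouts, without overlap. Its difference was -0.88 (SE 0.23), its unadjusted limma p was under 0.05 and its adjusted p = 1 (limma, Benjamini-Hochberg). Over all genes, 4.5% were lower without overlap and 0.96% had an unadjusted limma p under 0.05. Among CDK inhibitors the median was -0.21 over 5 genes. Cdkn1c, whose product p57 keeps stem cells at rest, read 8.05 and 9.19 against 8.05, 6.14 and 8.05. Its value was lowest in knockout replicate 2. The other 4 of the 5 CDK inhibitor genes were highest in that array (80.0%, against 26.0% of all genes). Cdkn1c is also on the stem cell list, where 16 of 16 genes were lowest in knockout replicate 2 (against 40.5% of all genes).

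Markers of some other cells shared part of the array order of the mitosis genes. Neutrophil genes (6 of 6 measured) averaged 13.51 to 14.61 in controls and 12.02 to 14.72 in knockouts. By array they averaged 14.61 and 13.51 in controls and 12.02, 14.72 and 13.41 in knockouts, so the lowest array was again knockout replicate 1 and control replicate 1 exceeded control replicate 2. Erythroid genes (9 of 10 measured) averaged 12.29 and 10.56 in controls and 11.08, 12.02 and 11.58 in knockouts. Macrophage genes (12 of 12) averaged 10.85 and 9.92 against 8.36, 8.72 and 9.53. Of the macrophage genes, 9 of 12 were lower in knockouts without overlap and 6 had an unadjusted limma p under 0.05, none passing after adjustment. Over all genes these shares were 4.5% and 0.96%. Granulocyte-monocyte progenitor genes were lowest in knockout replicate 1 for 6 of 7. Defining neutrophil genes were far above background, S100a8 at 13.51 to 15.11 and Ltf at 10.84 to 14.86 over the arrays. The Lin- gate is meant to remove mature cells of the lineages it targets. The part of such cells in the mitosis values was not tested.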

How the data were processed

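RNA was amplified by 2 rounds of in vitro transcription and hybridised to Affymetrix mouse arrays, per the labels' protocols. The deposited values are log2 intensities. The submitters' processing notes name RMA and Affymetrix Expression Console without versions. RMA forces the arrays to 1 distribution, so a shift of most transcripts is removed. Of 45101 rows, 64 control probe sets and the dimmest 40% of the others (mean under 5.77) were left out, and 27022 were tested with limma 3.58.1 in R 4.3.3 (lmFit and eBayes, two-sided, Benjamini-Hochberg adjustment over all of these, adjusted p under 0.05). SE and intervals are those of this fit. Gene names came from the platform annotation, updated by gene ID; 34945 probe sets named 1 gene, 932 several and 9160 none. The fit was tested on simulated data. Members and lists were chosen with earlier results of these data known. All members are named, and up to 4 genes of smallest p from other lists described. Alternatives were 2 filters, a trended robust prior, array weights, cyclic loess, averaging the probe sets of each gene, the replicate number as a block, and dropping every array in turn. Figures used matplotlib 3.10.9.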

Additional observations from a re-analysis of the deposited data

How the results depend on the processing

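No probe set passed the test across all probe sets under any alternative run, while 174 to 1160 probe sets, or 115 of 12813 genes with probe sets averaged, had an unadjusted limma p under 0.05. The median of the mitosis genes stayed between -0.45 (array weights) and -0.17 (cyclic loess) in the alternatives that kept all arrays, and between -0.40 and 0.06 with single arrays left out. The array weights gave knockout replicate 1 a weight of 7.67, against 0.204 to 1.03 for the other arrays. With array weights 1 of 31 genes had an unadjusted limma p under 0.05, against 1160 of all 27022 probe sets. Without knockout replicate 2 this was also 1 of 31 genes, against 1057 of 27022 probe sets. The number of genes whose groups did not overlap was 1 with all arrays, 0 with cyclic loess, 3 with all probe sets of a gene averaged and 2 to 19 with single arrays left out, where fewer values have to separate. It was 19 without control replicate 2. There, any gene whose highest array is control replicate 1 separates by itself. With all arrays 19 of 31 genes were highest in that array (61.3%, against 13.4% of all genes), so this count adds no separate result. Shares of all genes without overlap are not given for these alternatives, so the counts have no background to be read against. Where a control was left out, the lone one was assumed to vary like the knockouts. With the replicate number as a replicate block the median was -0.33, as without knockout replicate 3. That array has no control of its number and so adds nothing to the blocked difference, and these 2 settings are not separate checks. Only numbers 1 and 2 are shared by both groups. Deviations of same-numbered arrays from their group means correlated at -0.58 and -0.59 across genes. The deviations of 2 controls mirror each other, so these values cannot show whether the numbers are pairs. The main fit did not take them as pairs.

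Signs of single genes turned under some alternatives, and none of these differences passed the test. Plk1 was -0.19 and Aurka -0.22 with array weights, Aurka was -0.06 with the mean of its probe sets, and Mad2l1 was -0.03 with the replicate block. With single arrays left out, 20 of 31 genes changed sign at least once: 15 when control replicate 1 was missing and 9 when knockout replicate 1 was missing. Leaving out control replicate 2 or knockout replicate 2 turned 2 each. Leaving out knockout replicate 3 turned 1, again Mad2l1, with the same value as the replicate block. Their ranges were -0.48 to 0.05 for Ccnb2, -0.68 to 0.06 for Cdc25c, -0.12 to 0.50 for Plk1, -0.24 to 0.48 for Aurka and -0.63 to 0.08 for Tpx2. They were -0.28 to 0.12 for Nek2, -0.59 to 0.15 for Hmmr, -0.41 to 0.16 for Kif11, -0.17 to 0.13 for Bub1 and -0.03 to 0.05 for Mad2l1. For Ttk the range was -0.33 to 0.03, for Cenpe -0.69 to 0.08, for Cenpf -0.89 to 0.17, for Ndc80 -0.19 to 0.04 and for Kif2c -0.49 to 0.06. For Birc5 it was -0.40 to 0.13, for Kif23 -0.59 to 0.09, for Cdc20 -0.34 to 0.13, for Ube2c -0.92 to 0.48 and for Mki67 -0.70 to 0.17. The other 11 genes did not change sign in the alternatives run, but several came close to 0 with an array left out. The ranges were -0.81 to -0.01 for Racgap1, -0.66 to -0.01 for Nusap1, -0.68 to -0.05 for Nuf2, -0.70 to -0.07 for Ccna2, -0.62 to -0.08 for Prc1 and 0.03 to 0.54 for Cenpa. For Kif20a the lowest was -0.39 and the highest rounded to 0, for Aurkb they were -0.33 and -0.07, and for Top2a -0.27 and -0.06. For Cdk1 they were -0.35 and -0.10, and for Bub1b -0.37 and -0.15.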
